A study of Mus musculus with 36 samples.

Results

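The genes Ndufb10, Tedc2, Echdc3, H4c6, Rchy1 and Kptn were described in mice with a maternal single X chromosome (39,XmO), mice with a paternal one (39,XpO) and mice with a pair of X chromosomes (40,XX). They were selected on the difference between XmO and XpO pools in liver or kidney, and all probes of each gene were taken, which gave 8 probes for 6 genes among the 28885 probes and 13588 named genes of the normalised table. Because the liver and kidney differences chose the genes, they are given below as a description and without a test. Every one of the 6 genes is autosomal. The question was whether the XX pools lay with the XpO pools, between XpO and XmO, or spread over both.

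RNA of liver, kidney, muscle and brain from females aged 12 weeks was hybridised to 36 Illumina Mouse WG-6 arrays, 3 pools per genotype in each tissue, with 2 or 3 mice to a pool. All mice were random-bred MF1 with an X chromosome background that goes back to 1 progenitor X. XX and XpO mice had 40,In(X)1H/XPaf mothers and 40,XY fathers, whereas XmO mice had 40,XX mothers and 40,XPafY* fathers, so for every XmO value genotype and cross cannot be told apart. Pools carried the same numbers in all 4 tissues and stood for the same mice, so the tissues are not independent of each other, and an individual mouse cannot be read from a pool. P-values measure the spread between pools, and in whole tissue fewer cells of a type and less RNA per cell cannot be told apart.

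Ndufb10 encodes an accessory subunit of respiratory complex I, which passes electrons from NADH to ubiquinone in the inner mitochondrial membrane. Tedc2 encodes a partner of delta- and epsilon-tubulin, needed for stable centrioles in cultured human cells. Echdc3 belongs to the enoyl-CoA hydratase fold family of mitochondrial proteins, and H4c6 is one of many copies of the replication-dependent histone H4 gene. Rchy1 (Pirh2) encodes a RING ubiquitin ligase of p53, and Kptn encodes kaptin, a member of the KICSTOR complex, which holds the GATOR1 inhibitor of mTORC1 at the lysosome.

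Ndufb10 and Tedc2 showed the largest deficits in XmO pools, lie on chromosome 17 and are separated by 18 genes measured on the array. Their RefSeq start regions (assembly GRCm38.p6, minus strand, 250 bases before the start and 50 after) are printed below. Both genes were lower in XmO of liver, a difference on which they were chosen. The Ndufb10 window is chr17:24724374-24724673 and the Tedc2 window chr17:24220802-24221101, with matches of TGCGCA, a core element of the motif of NRF1, a regulator of respiratory chain genes, and of CCAAT, on either strand, in capitals.
Ndufb10: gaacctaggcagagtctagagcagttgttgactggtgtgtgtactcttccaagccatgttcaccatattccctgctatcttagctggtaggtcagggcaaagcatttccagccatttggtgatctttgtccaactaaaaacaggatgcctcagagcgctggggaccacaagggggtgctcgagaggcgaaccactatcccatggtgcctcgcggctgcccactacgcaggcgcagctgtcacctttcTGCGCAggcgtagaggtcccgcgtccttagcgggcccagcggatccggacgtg
Tedc2: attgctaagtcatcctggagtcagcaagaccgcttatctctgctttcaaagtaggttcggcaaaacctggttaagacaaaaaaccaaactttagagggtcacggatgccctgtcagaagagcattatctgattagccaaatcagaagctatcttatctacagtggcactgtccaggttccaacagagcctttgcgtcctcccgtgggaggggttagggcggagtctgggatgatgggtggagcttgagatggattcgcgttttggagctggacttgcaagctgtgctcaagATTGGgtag
The Ndufb10 window held 1 NRF1 element and no match of the other motif. The Tedc2 window held 1 match of CCAAT and no NRF1 element. That match is read on the opposite strand and lies in the 50 bases after the start. Of 32851 mouse start regions of this length, 7.76% held the NRF1 element and 37.4% the letters CCAAT. The TATA box letters TATAAA, present in 13.6% of these regions, were found in neither. The arrays measured the signal of probes for the transcripts and did not read these bases. Ndufb10, Tedc2, Echdc3 and Rchy1 had 1 probe each, so no other probe of the gene checks their signal.

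Signals are log2 intensities, normalised by quantiles over the 35 arrays used, so a difference of 1 is a 2-fold change. In muscle XpO pool 3 was dropped, since its intensities were unrelated in rank to the normalised values of the same array (rank correlation -0.0374), which left 2 XpO pools there. Arrays had median intensities of 55.6 to 70.4. Detection followed the authors, whose normalised values cover a probe only in the tissues where they kept it, and 17747 probes were kept in no tissue. The 95th percentile of these undetected probes was 5.97 (liver), 5.89 (kidney), 5.93 (muscle) and 5.87 (brain), and signals near these levels are close to background. Xist, transcribed from the inactive X, read 9.98 to 11.67 in XX pools and 5.91 to 6.61 in XpO and XmO pools over the 4 tissues by probe ILMN_2475156. The other Xist probe, detected in liver only, read 6.42 to 6.92 in XX and 5.59 to 5.79 in XpO and XmO pools. All measured markers of hepatocytes (8), kidney tubule (8), muscle fibre (7) and brain cells (6) were above the undetected level in their own tissue. Arrays of a tissue had mean correlations of 0.988 to 0.994 with each other in liver, kidney and muscle and of 0.974 to 0.987 in brain.

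Ndufb10 was bright in every XX and XpO pool and dim in every XmO pool. In liver its log2 signal was 10.93, 11.04 and 10.89 in the XpO pools, 8.14, 8.12 and 7.81 in the XmO pools, and 10.65, 11.28 and 10.43 in the XX pools. In kidney it was 10.94, 10.98 and 10.83 in XpO, 7.32, 7.18 and 7.23 in XmO, and 10.78, 10.999 and 10.21 in XX. Both tissues chose the gene, and XmO lay 7.61-fold below XpO in liver and 12.8-fold below in kidney. The muscle and brain arrays, from the same pools of mice, were not used to choose it.

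In muscle the Ndufb10 signal was 12.12 and 12.12 in XpO, 8.67, 8.29 and 8.54 in XmO, and 11.79, 12.12 and 11.53 in XX. In brain it was 10.32, 10.25 and 10.32 in XpO, 6.96, 6.97 and 6.81 in XmO, and 9.75, 10.46 and 9.53 in XX. No XmO pool overlapped with any other pool, and the closest XpO and XmO pools of a tissue were 2.75 to 3.51 apart on the log2 scale. Relative to XpO, XmO was lower by a factor of 12.2 in muscle (log2 difference -3.61 ± 0.16 SE, limma adjusted p = 2.75e-06) and of 10.4 in brain (-3.38 ± 0.20, adjusted p = 0.00174). Such calls were rare, with 3 of 21810 detected probes in muscle (0.0138%) and 4 of 24863 in brain (0.0161%). In the authors' own normalised values the unused XpO pool 3 of muscle, at 11.85, lay with the other two at 12.01 and far from XmO at 8.30 to 8.60. The remaining XmO level, 6.91 in brain to 8.50 in muscle, still exceeded the undetected level.

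**Figure D1:**
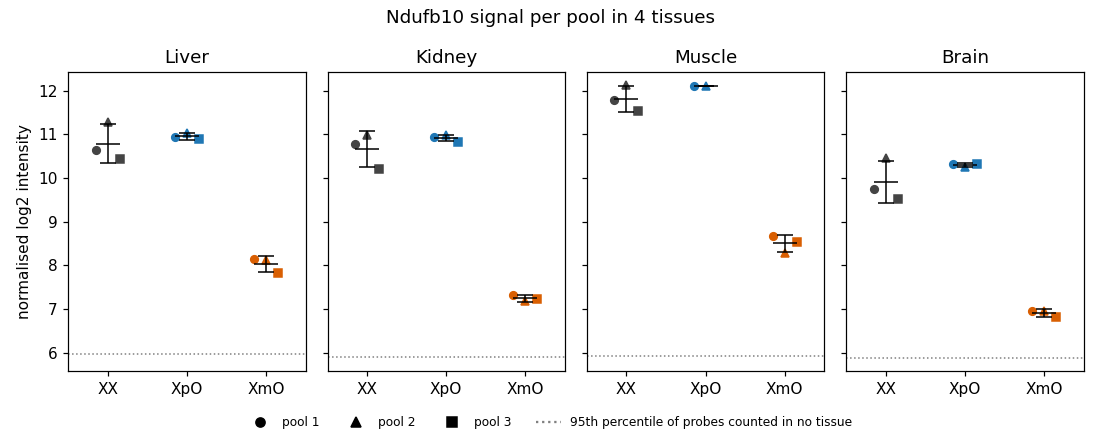
Normalised log2 intensity of Ndufb10 in each pool of XX, XpO and XmO mice in the 4 tissues, with bars for the mean ± SD (n = 3 pools, 2 for XpO in muscle) and a dotted line at the 95th percentile of probes detected in no tissue. XpO pools sit close together, XmO pools lie at least 2.75 below them, and XX pools spread to both sides of the XpO pools, with pool 2 above (in muscle level with) and pools 1 and 3 below them in each tissue.

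XX pools of Ndufb10 lay on both sides of XpO, pool 2 above every XpO pool (by next to nothing in muscle) and pools 1 and 3 below every XpO pool in each tissue. XX pool 2 was the highest and XX pool 3 the lowest of the XX pools in all 4 tissues. With the XmO mean of a tissue as 0% and the XpO mean as 100% on the linear scale, XX pool 2 stood at 129% (liver), 106% (kidney), 101% (muscle) and 113% (brain). XX pool 1 stood at 78.1%, 90.01%, 77.7% and 64.9%, and XX pool 3 at 64.9%, 58.0%, 63.5% and 54.4%, in the same order of tissues. By the pooling scheme, pools 1 and 2 held 3 mice each and pool 3 held 2.

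The spread of the XX pools was wide for this gene. The SD of the log2 signal over the XX pools was 0.44 (liver), 0.41 (kidney), 0.30 (muscle) and 0.48 (brain), which placed Ndufb10 at percentiles 98.9, 98.9, 96.3 and 97.1 of all detected probes of the tissue. Over the XpO pools the SD was 0.08, 0.08, 0.0015 and 0.05, the muscle value from 2 pools, and over the XmO pools 0.18, 0.07, 0.19 and 0.09. The XX mean did not pass the test against XpO in muscle (-0.30 ± 0.16, 95% interval -0.66 to 0.05, adjusted p = 0.437) or in brain (-0.39 ± 0.20, interval -0.84 to 0.07, adjusted p = 1.00), where 0.0138% and 0.00804% of detected probes passed. Against XmO, the XX mean was higher in muscle (3.31 ± 0.14, limma adjusted p = 1.43e-06) and in brain (3.00 ± 0.20, adjusted p = 0.0016), in contrasts that called 0.16% and 0.0282% of the probes.

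In the tissues that chose the genes, the XX mean was set against the midpoint of the XpO and XmO means, as a description without a p, since the same pools chose the genes and enter the midpoint and the estimate of spread. XX of Ndufb10 lay 1.30 ± 0.15 (SE) above the midpoint in liver and 1.58 ± 0.13 above it in kidney. XX of Tedc2 lay 0.65 ± 0.09 and XX of Rchy1 0.38 ± 0.09 above it in liver. The limma contrast called 3 of the 7 detected probes in liver and 1 of 7 in kidney, beside 7.37% and 0.0641% of all probes, and nothing is read from these counts.

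Tedc2 was detected in liver only. Its signal there was 8.08, 7.93 and 7.74 in XpO, 7.45, 7.52 and 7.36 in XX, and 5.62, 5.58 and 5.85 in XmO. All 3 XX pools lay between the groups, below the lowest XpO pool, and stood at 64.9%, 69.1% and 59.2% of the linear distance from XmO to XpO. The XmO pools were at background, so no exact fold is given for the deficit. In this normalisation the XpO mean was 3.85-fold above the 95th percentile of undetected probes. The authors' own normalised values lay closer together, at 7.83, 7.73 and 7.62 in XpO and 6.88, 6.85 and 6.93 in XmO. XX pools of Tedc2 were close together, with an SD of 0.08 against 0.17 for XpO and 0.15 for XmO. Their order was that seen for Ndufb10, with pool 2 highest and pool 3 lowest. In liver Echdc3 and the H4c6 probe ILMN_2525565 had this order too, so it does not set Tedc2 apart. In kidney, muscle and brain the Tedc2 signals were 5.32 to 5.99 in all pools, at or near background, and no fold is given. XmO pools were the lowest in muscle, at 5.32 to 5.48 against 5.80 and 5.87 in XpO, and in brain, at 5.47 to 5.68 against 5.82 to 5.99. XpO and XmO pools did not overlap for 27.6% of detected probes in muscle and 18% in brain either, and nothing is read from these background signals.

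Echdc3 was lower in XmO pools of liver, kidney and muscle. In liver the signal was 9.91, 9.90 and 9.72 in XpO, 8.35, 8.60 and 8.69 in XmO and 9.40, 9.42 and 9.40 in XX, so that XmO lay 2.46-fold below XpO. The XX pools of liver were almost identical (SD 0.0092) and lay between the groups, at 55.3%, 56.5% and 54.9% of the linear distance to XpO. In kidney it was 8.06, 8.36 and 7.95 in XpO, 7.27, 7.33 and 6.97 in XmO and 7.87, 8.11 and 7.94 in XX, with 1 XX pool inside the XpO range and the other two just under it. In muscle it was 7.001 and 7.26 in XpO, 6.61, 6.55 and 6.75 in XmO, and 6.997, 7.08 and 7.02 in XX, so that XmO lay below all other pools and XX overlapped with XpO. The muscle difference did not pass the test (-0.49 ± 0.10, adjusted p = 0.222). In brain all 9 pools lay between 5.89 and 6.09, near background, and XpO and XmO pools overlapped.

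H4c6 was measured by a pair of probes that disagreed. The first, ILMN_1222313, was lower in XmO in liver, with 7.73, 7.85 and 7.67 against 8.20, 8.31 and 8.21 in XpO, and in kidney, with 7.62, 7.55 and 7.72 against 8.52, 8.53 and 8.88. In muscle it read 9.14, 9.22 and 8.99 in XmO, 9.94 and 10.17 in XpO, and 9.86, 9.75 and 10.01 in XX. XmO was 1.91-fold below XpO there (-0.94 ± 0.11, adjusted p = 0.0449), a call lost when any 1 of the 3 XmO or 2 XpO pools, or XX pool 1 or 2, was left out (adjusted p = 0.0566 to 0.173). XX of muscle was 0.76 ± 0.10 above XmO (adjusted p = 0.0216), and this call was lost without XX pool 1 (adjusted p = 0.0991), without any 1 XmO pool (0.0579 to 0.0698) and with the authors' values (0.0539). In brain XmO and XpO pools of this probe overlapped, at 6.61 to 6.86 and 6.81 to 7.05.

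The other H4c6 probe, ILMN_2525565, did not follow. XmO minus XpO was 0.09 in liver and 0.08 in kidney, with overlapping pools, 0.28 ± 0.09 in muscle (adjusted p = 0.436) and 0.11 ± 0.07 in brain (adjusted p = 0.581). Histone H4 genes are nearly identical in their coding part, so signal of other copies in either probe cannot be told apart here. XX pools of ILMN_1222313 were spread in liver, at 8.58, 8.05 and 8.24, with 1 above, 1 within and 1 below the XpO pools. In kidney they were at 8.75, 8.40 and 8.53. Here XX pool 2 was the lowest in all 4 tissues, another order than for Ndufb10.

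Rchy1 separated the XO groups most cleanly in kidney, with 8.32, 8.27 and 8.36 in XpO, 7.70, 7.79 and 7.76 in XmO, and 8.29, 8.38 and 8.29 in XX. In liver it read 8.71, 8.50 and 8.67 in XpO, 8.07, 8.46 and 8.28 in XmO, and 8.93, 8.74 and 8.83 in XX, so that every XX pool lay above every XpO pool. In muscle the XmO pools were wide apart, at 8.35, 9.19 and 8.96, against 9.41 and 9.26 in XpO and 8.93, 9.14 and 9.19 in XX. The XmO difference of muscle did not pass the test (-0.50 ± 0.20, adjusted p = 0.5002), and in brain it was -0.01 ± 0.09 (interval -0.22 to 0.20, adjusted p = 0.964), with overlapping pools of 8.05 to 8.33 over all genotypes. XX pools thus lay above XpO in liver, with XpO in kidney and between the groups or inside the XmO range in muscle.

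Kptn went the other way, and both of its probes were higher in XmO. For ILMN_2732642 the XmO signal was 7.22, 7.28 and 6.83 in liver, against 6.53, 6.47 and 6.69 in XpO and 6.49, 6.67 and 6.57 in XX. In kidney it was 6.90, 6.65 and 6.75 in XmO, 5.96, 6.06 and 6.05 in XpO and 6.08, 6.27 and 6.14 in XX. Muscle gave 7.11, 7.01 and 7.08 in XmO, 6.59 and 6.44 in XpO and 6.18, 6.13 and 6.11 in XX. In brain it was 6.86, 6.80 and 7.18 in XmO, 6.15, 6.09 and 6.20 in XpO and 6.30, 6.04 and 6.17 in XX. XX pools lay with XpO in liver and brain, a little above it in kidney, and beyond it, away from XmO, in muscle. XmO minus XpO was 0.55 ± 0.09 in muscle (adjusted p = 0.0895) and 0.80 ± 0.11 in brain (adjusted p = 0.104), neither past the threshold. XX of muscle was 0.93 ± 0.08 below XmO (adjusted p = 0.000699).

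The second Kptn probe, ILMN_1216235, was detected in kidney, muscle and brain and was close to background in XX and XpO pools. In brain it read 6.81, 6.94 and 6.70 in XmO, 5.88, 5.90 and 5.83 in XpO, and 5.87, 5.85 and 5.93 in XX. XmO was higher than XpO by 0.94 ± 0.08 (adjusted p = 0.0103) and XX lower than XmO by the log2 difference -0.93 ± 0.08 (adjusted p = 0.00507). Because XpO sat at background, the XmO mean in brain is given against the 95th percentile of undetected probes, 1.92-fold above it in this normalisation. The XmO-XpO call of brain was lost without XX pool 1, without any 1 XpO pool or without XmO pool 1 (adjusted p = 0.0509 to 0.117). In kidney the probe read 6.47, 6.21 and 6.26 in XmO against 5.64 to 5.90 in the other pools. In muscle it read 6.28, 6.15 and 6.30 against 5.71 to 5.93, where XmO minus XpO was 0.47 ± 0.10 (adjusted p = 0.222).

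**Figure D2:**
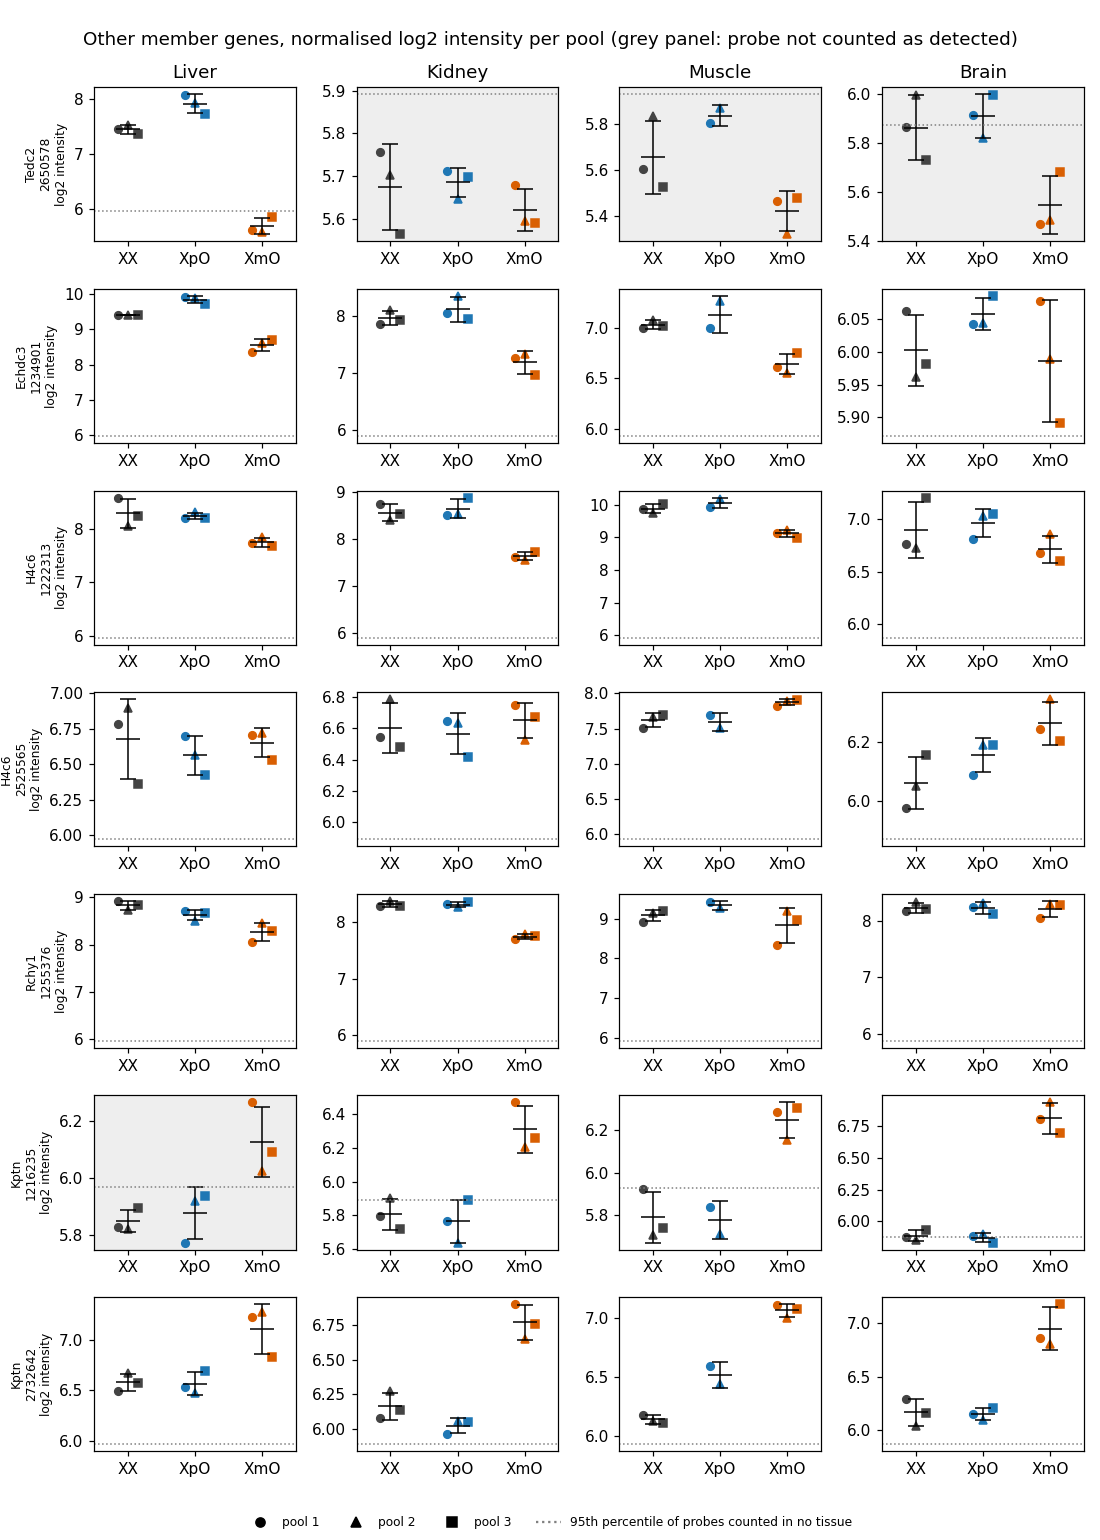
Normalised log2 intensity per pool of the other 7 probes (rows, named by gene and probe number) in the 4 tissues (columns), with mean ± SD bars (n = 3 pools, 2 for XpO in muscle), a dotted line at the 95th percentile of undetected probes where it falls in range, and a scale of its own in each panel. XmO pools lie below the others for Tedc2 in liver (5.58 to 5.85) and Echdc3 in liver, kidney and muscle, and above them for both Kptn probes, whereas ILMN_2525565 of H4c6 overlaps in liver and kidney.

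In all, 28 pairs of probe and tissue were detected, 17 with a lower and 11 with a higher XmO mean. XpO and XmO pools did not overlap for 6 of the 7 detected probes in liver (17.2% of all detected probes there), 6 of 7 in kidney (17.9%), 7 of 7 in muscle (27.6%, with 2 XpO pools) and 4 of 7 in brain (18%). The liver and kidney counts follow from how the genes were picked. Ranks by the p of the choosing contrast are given for the best probe of each gene. Tedc2, Ndufb10 and Echdc3 stood at ranks 1, 2 and 3 in liver, where H4c6, Rchy1 and Kptn stood at 127, 343 and 67. In kidney Ndufb10, Kptn, Rchy1 and H4c6 stood at ranks 1, 2, 3 and 4, and Echdc3 at 8. The other H4c6 probe stood at 11950 in liver and 11827 in kidney, and the other Kptn probe at 25 in kidney. The XmO-XpO contrast called 3 of 7 probes in liver and 5 of 7 in kidney, beside 0.0503% and 0.0897% of all probes, counts that follow from the choice as well. In the tissues that were not used, the contrast called 2 of 7 in muscle, both lower in XmO, beside 0.0138% of all probes, and 2 of 7 in brain, 1 lower and 1 higher, beside 0.0161%. The limma contrast of XX and XpO called 0 of 7 in muscle, with 1 at an unadjusted p under 0.05 beside 2963 of all 21810 probes, and 0 of 7 in brain, with 0 such probes beside 595 of 24863. XX minus XmO called 3 of 7 in muscle and 2 of 7 in brain, beside 0.16% and 0.0282% of all probes.

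The position of XX was given for the 23 detected pairs without overlap, as the XX-XpO difference divided by the XmO-XpO difference on the log2 scale, where 0 is the XpO mean and 1 the XmO mean. The XX mean was nearer to XpO than to XmO in 23 of 23 pairs, at a median of 0.08 and a range of -0.89 to 0.50. The position was not computed for the other probes of the array, so this count does not set the 6 genes apart. Among all detected probes, limma called fewer for XX minus XpO than for XX minus XmO in the main fit. The calls were 29 against 1550 (liver), 5 against 167 (kidney), 3 against 35 (muscle, with 2 XpO pools) and 2 against 7 (brain). The liver calls depended on the normalisation, with 358 against 1484 for the authors' values. With median scaling the order in liver was reversed, at 2791 against 1248. Of the 69 XX pool values, 22 fell within the XpO range, 16 beyond it on the side away from XmO, 29 between the groups and 2 within the XmO range. They are readings of the same 3 XX pools of mice over probes and tissues, not 69 independent values. All 29 values between the groups were nearer to the XpO mean. The 2 values within the XmO range were those of Rchy1 in muscle, where the XX mean was at 0.50. These positions share the XpO and XmO pools that chose the genes in liver and kidney, and the scale stretches where the XmO-XpO difference is small, as for ILMN_2525565 in brain.

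**Figure D3:**
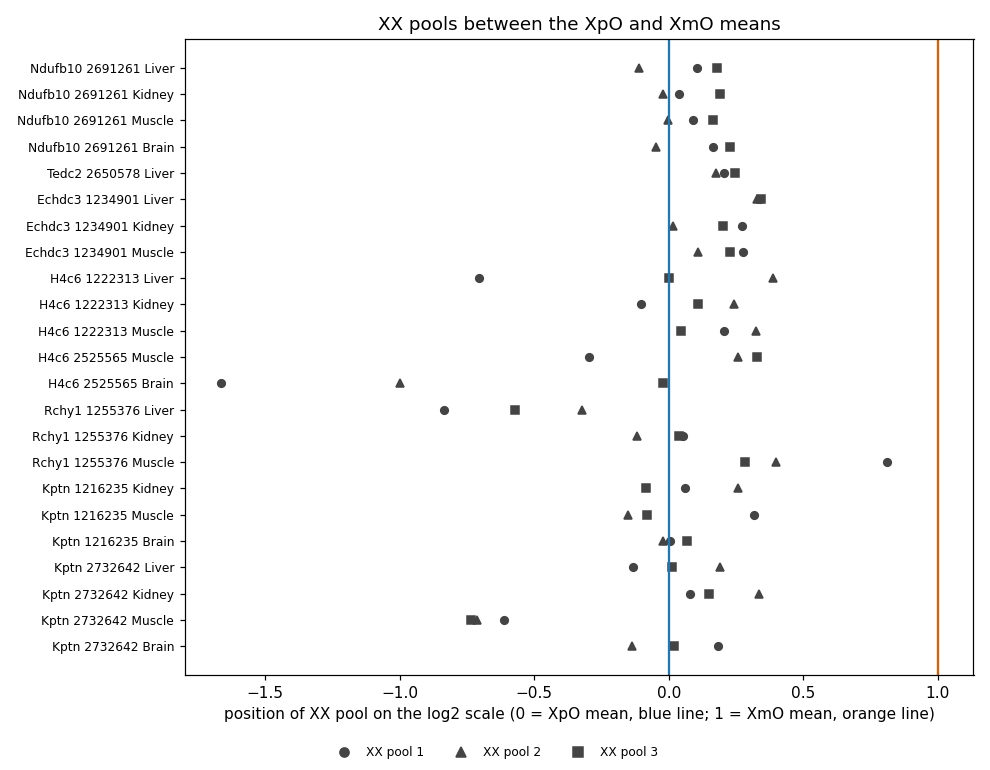
Position of each XX pool on the log2 scale relative to the XpO mean (0, blue line) and the XmO mean (1, orange line) for the 23 detected pairs of probe and tissue whose XpO and XmO pools do not overlap. The XX means range from -0.89 to 0.50, Ndufb10 shows the same order of pools in each tissue, and the XX pools of Echdc3 and Tedc2 in liver lie between the lines.

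XmO minus XpO was also compared between brain and muscle, the tissues that did not choose the genes. None of the 7 probes differed past the threshold (limma interaction, 0 of 7, with 4 at an unadjusted p under 0.05), beside 0.493% called and 2976 at such a p of the 19888 probes detected in both. For Ndufb10 the difference was 0.23 ± 0.30 (interval -0.38 to 0.84, adjusted p = 0.756). ILMN_1222313 of H4c6 had the largest, 0.69 ± 0.19 (adjusted p = 0.0967), followed by Rchy1 with 0.49 ± 0.20 (adjusted p = 0.225) and ILMN_1216235 of Kptn with 0.48 ± 0.13 (adjusted p = 0.0809).

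Of the genes next to the members, those on chromosome 17 showed differences as well. Neighbours were the 10 nearest measured genes on each side. Ntn3, which encodes a netrin-like guidance protein and is the next measured gene to Tedc2, was lower in XmO of liver by one probe (8.71 in XpO, 8.02 in XmO and 8.46 in XX, log2 difference -0.69 ± 0.10, adjusted p = 0.0409), whereas its other probe did not pass (-0.52 ± 0.09, adjusted p = 0.0785). Flywch2, a FLYWCH-type zinc finger gene 10 places from Tedc2, was lower in XmO of liver (7.59 in XpO, 6.48 in XmO and 7.47 in XX, -1.10 ± 0.16, adjusted p = 0.0458) and of kidney (8.26, 7.73 and 8.23, -0.54 ± 0.07, adjusted p = 0.0154). In muscle Flywch2 had a difference of the other sign (0.53 ± 0.12, adjusted p = 0.241), and in brain -0.03 ± 0.19 (adjusted p = 0.957). Chromosome 17 held 4 of the 10 XmO-XpO calls of liver, 2 of 21 in kidney, 1 of 3 in muscle and 1 of 4 in brain. Ndufb10 is in each count and Tedc2 in that of liver, which leaves Flywch2 and Ntn3 in liver and Flywch2 in kidney as the calls outside the 6 genes. The chromosome held 716 of the 19878 detected probes in liver, 775 of 23417 in kidney, 731 of 21810 in muscle and 800 of 24863 in brain.

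No neighbour of Ndufb10 passed, and the largest differences among its neighbours did not run one way. They were -0.65 ± 0.10 for Traf7 in liver (adjusted p = 0.0544), 0.71 ± 0.13 for the sulfhydryl oxidase gene Gfer in kidney (0.0711), -0.37 ± 0.19 for Traf7 in muscle (0.590) and -0.56 ± 0.09 for Tbl3 in brain (0.151). The median absolute difference of the Ndufb10 neighbours was 0.16 (liver), 0.15 (kidney), 0.15 (muscle) and 0.14 (brain), beside 0.08, 0.07, 0.09 and 0.11 for all detected probes. For the Tedc2 neighbours, whose window shares genes with that of Ndufb10, it was 0.21, 0.13, 0.12 and 0.14. The largest muscle and brain differences among the latter were those of Flywch2 and of 1 of the 3 probes of Mlst8 (0.72 ± 0.13 in brain, adjusted p = 0.160), whose other two differed by -0.01 and 0.02. Caskin1 had a brain difference of nearly the same size and the other sign (-0.72 ± 0.11, adjusted p = 0.129). Its other probes differed by -0.27 and -0.44 in brain.

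**Figure D4:**
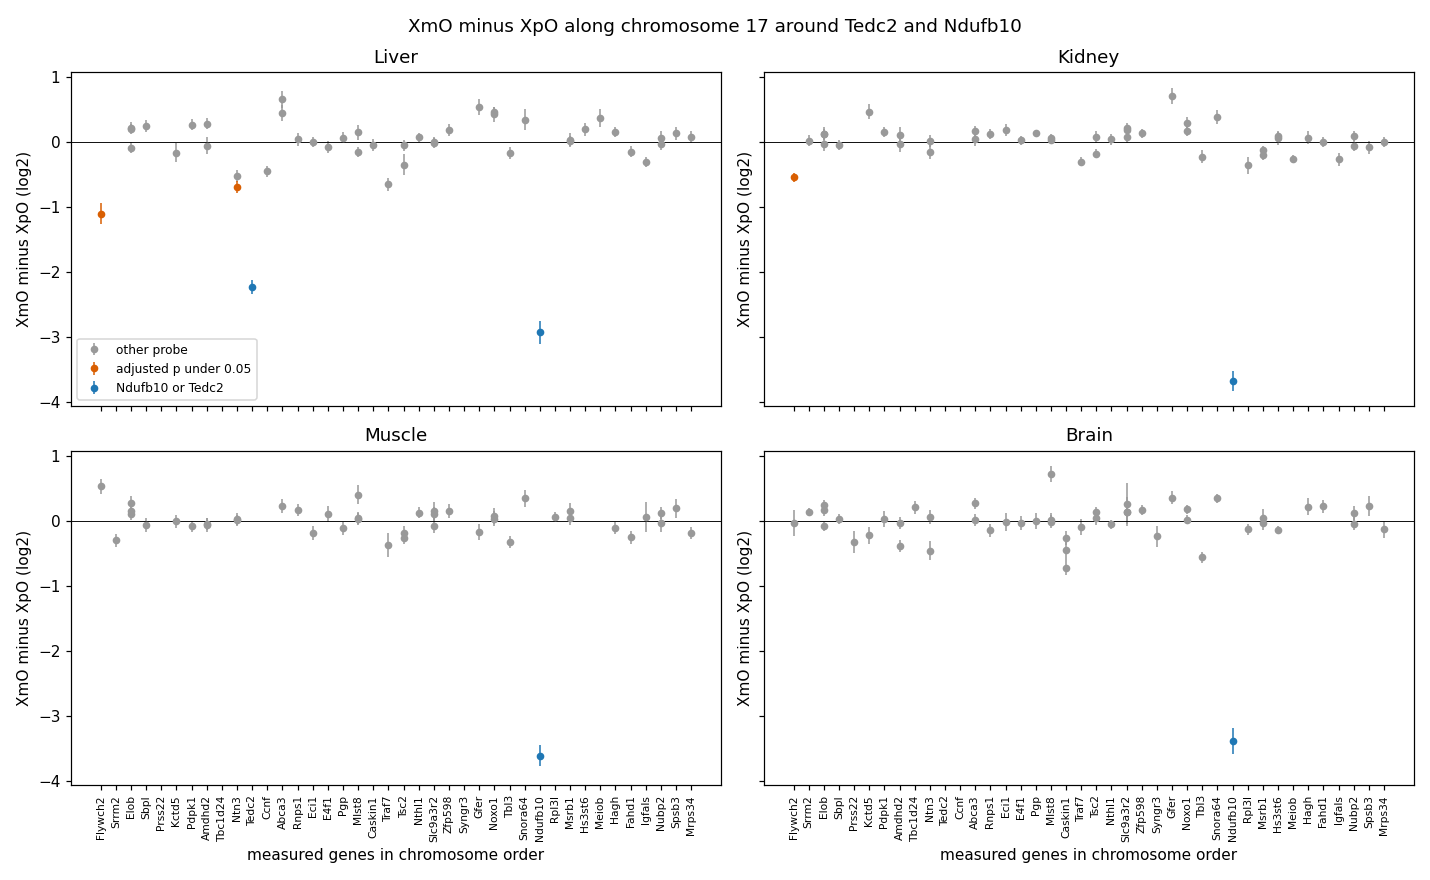
XmO minus XpO (log2, limma estimate ± SE) for every detected probe of the measured genes from 10 places before Tedc2 to 10 places after Ndufb10, in chromosome order with even spacing. Ndufb10 lies at -2.93 to -3.67 in the 4 tissues. The fitted value of Tedc2 in liver, -2.23, rests on XmO pools at background. Its XpO mean there was 3.85-fold above the 95th percentile of undetected probes. All other probes lie between -1.10 and 0.72.

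Around Echdc3, H4c6, Rchy1 and Kptn no neighbour passed in any tissue. By the single probe with the largest difference, which other probes of the same gene need not share, the values in muscle and brain were 0.29 ± 0.15 for Nudt5 and -0.51 ± 0.32 for Ccdc3 near Echdc3, 0.77 ± 0.62 for Btn1a1 and -0.32 ± 0.16 for H2ac6 near H4c6, 0.44 ± 0.50 for Cxcl15 and -0.37 ± 0.13 for Parm1 near Rchy1, and -0.28 ± 0.10 for Sae1 and -0.38 ± 0.16 for Arhgap35 near Kptn. Near H4c6 the 9 muscle probes at an unadjusted p under 0.05, of 26, included 8 that were lower in XmO. All of these 8 but Zfp322a measure other histone genes of that cluster.

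The calls of muscle and brain outside the 6 genes were few. Muscle held 1, the unnamed probe ILMN_1214655, which was chosen after its values were seen. Its muscle mean was 6.52 in XmO, 9.57 in XpO and 10.002 in XX (XmO minus XpO -3.06 ± 0.11, adjusted p = 4.16e-07), and its means in liver and kidney were 5.89 to 6.16 in all genotypes. In brain they were 6.88, 7.42 and 7.55, in the same order. Brain held 2, Sltm, which encodes an RNA-binding protein (0.61 ± 0.06, adjusted p = 0.048), and the unnamed probe ILMN_2698673 (0.72 ± 0.06, adjusted p = 0.0162).

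The genes most like each member were found over the 35 arrays after the mean of each tissue was taken off. The arrays share genotype groups and pools, so the correlations are descriptions and carry no p. Ndufb10 was most like H4c6 (Pearson r = 0.83), the sialate esterase gene Siae (0.81) and Parp3, a poly(ADP-ribose) polymerase (0.77), of 9330 genes. Tedc2, over its 9 liver arrays, was most like Echdc3 (0.98), Parp3 (0.98) and Ndufb10 (0.97). Echdc3 was most like Parp3 (0.81), the deubiquitinase gene Usp25 (0.77) and Ndufb10 (0.76), and H4c6 most like Ndufb10 (0.83), Ccdc93 (0.75) and H4c9 (0.74). Rchy1 was most like Usp25 (0.80), Tbrg1 (0.75) and Siae (0.74), of which the last pair are adjacent measured genes on chromosome 9. Kptn was most like Atg3 (0.79), Txnl4a (0.78) and Fgd2 (0.76). Likeness here means the highest positive r. In size, the r of Kptn with Ndufb10 was larger and inverse (-0.91, the lowest of the 9330 genes), between members chosen on the same split. With Spearman's rho in place of r, 1, 1, 2, 1, 3 and 1 of the 3 genes stayed for Ndufb10, Tedc2, Echdc3, H4c6, Rchy1 and Kptn.

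The members were chosen on a split between the XO groups, so a split in genes picked for likeness to them is built in. In liver Parp3 read 10.002 to 10.15 in XmO, 10.66 to 10.73 in XpO and 10.57 to 10.70 in XX. Siae read 7.69 to 8.52, 8.65 to 8.93 and 8.84 to 9.17, and Usp25 5.90 to 6.49, 6.89 to 7.11 and 6.94 to 7.16, in the same order, whereas XmO and XpO pools of H4c9 (7.33 to 7.62 and 7.53 to 7.72) and of Txnl4a (7.47 to 7.86 and 6.53 to 7.53) overlapped there. In brain Siae separated, with 6.77 to 6.91 in XmO and 7.35 to 7.73 in XpO, whereas Usp25 overlapped.

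The other genes of the members' pathways were read from 7 lists, and each value below is that of 1 probe. For complex I, 41 of 49 listed genes were measured, and of 61 probes 0 passed in liver, kidney and muscle and 0 of 60 in brain. At an unadjusted p under 0.05, 3 were higher and 1 lower in XmO of muscle, and 8 higher and 5 lower in brain, where 9.13% and 11.2% of all detected probes had such a p. The median difference over the list was -0.03 in muscle and 0.02 in brain, beside 0.00093 and -0.01 over all probes. The subunit genes with the smallest p in brain were Ndufb5 (0.49 ± 0.09, adjusted p = 0.168), Ndufb9 (0.47 ± 0.10, 0.201), Ndufa10 (-0.42 ± 0.11, 0.263) and Ndufs4 (0.34 ± 0.09, 0.272). In kidney the same probes of Ndufb5 and Ndufb9 had differences of the other sign, -0.44 ± 0.08 (adjusted p = 0.0839) and -0.33 ± 0.09 (0.206). No other measured complex I gene thus came near the Ndufb10 difference, the extremes over the 4 tissues being -0.48 and 0.49.

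Other histone H4 and histone mRNA processing genes (11 of 19 measured in muscle) had 0 of 18 probes past the threshold in muscle, with 6 lower and 1 higher in XmO at an unadjusted p under 0.05 and a median of -0.19. Those with the smallest p were H4c1 (-0.46 ± 0.10, adjusted p = 0.222), H4c11 (-0.45 ± 0.13, 0.341), H4c9 (-0.38 ± 0.13, 0.428) and H4c8 (-0.31 ± 0.12, 0.479). In brain 0 of 17 passed, with a median of 0.09. Proliferation genes had 0 of 17 and 0 of 15 past the threshold in muscle and brain, and the replication helicase gene Mcm6 was higher in XmO of kidney (0.76 ± 0.10, adjusted p = 0.015).

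In the KICSTOR, GATOR and mTORC1 list 0 of 38 probes passed in muscle and 0 of 42 in brain, where Mlst8, a subunit of mTOR complexes that lies between Tedc2 and Ndufb10, had 0.72 ± 0.13 by the same probe and Tsc1, an mTORC1 inhibitor, 0.35 ± 0.10 (adjusted p = 0.305). At an unadjusted p under 0.05, 1 was higher and 1 lower in muscle and 3 higher and 4 lower in brain. In the p53 list 0 of 23 and 0 of 26 passed, with Mdm4, an inhibitor of p53, at -0.36 ± 0.10 in muscle (adjusted p = 0.340) and, by another probe, 0.25 ± 0.06 in brain (0.263), and with 1 higher and 2 lower and 4 higher and 1 lower at an unadjusted p under 0.05. In the enoyl-CoA hydratase and isomerase family 0 of 19 passed in each of these tissues, with Echs1 (-0.29 ± 0.10, adjusted p = 0.450) and Ech1 (-0.30 ± 0.11, 0.460) the only 2 at an unadjusted p under 0.05 in muscle. In the tubulin and centriole list 0 of 20 and 0 of 23 passed, with 0 and 3 at an unadjusted p under 0.05, and Cetn2, a centrin gene, had 0.44 ± 0.10 in brain (adjusted p = 0.222).

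Markers of other cell types were read beside these results. In muscle the summed linear signal of 5 measured adipocyte markers (of 6 listed) was 7851 to 12435 in XmO, 4326 to 7398 in XpO and 3609 to 6305 in XX, with none of them at background, and its part in the muscle results was not tested. The muscle fibre sum of muscle was lower in XX (140235 to 153465) than in XpO (162514 to 166284) and XmO (161279 to 164322), and its part in the XX values was not tested. In kidney the adipocyte sum, with Retn at background, was 291 to 1439 in XmO, 1030 to 2277 in XpO and 1324 to 4216 in XX, and its part in the kidney values was not tested. The lowest XmO value is a background sum, since liver, where none of these probes was detected, gave 274 to 295. In kidney the muscle fibre sum (7 of 8 markers, Ckm at background) was 8803 to 10067 in XmO, 8358 to 8728 in XpO and 6949 to 8215 in XX, and its part in the kidney values was not tested. In brain the hepatocyte list, which holds the choroid plexus gene Ttr, summed to 7938 to 14961 in XmO, 996 to 7262 in XpO and 743 to 23114 in XX, with 4 of its 8 genes at background, and its part in the brain results was not tested either. The limma contrast of XmO and XpO called none of the marker probes in any tissue. Leukocyte and red cell sums overlapped between XmO and XpO in all 4 tissues. In liver the leukocyte sum (3 of 7 markers) was higher in XX, at 2656 to 3368, than in XpO, at 2296 to 2572, and its part in the XX values of liver, such as those of Rchy1, was not tested.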

How the data were processed

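Illumina Mouse WG-6 arrays measured total RNA of 3 pools per genotype in 4 tissues. The authors deposited BeadStudio intensities on a linear scale and, separately, log2 values that they had normalised with lumi and filtered to probes kept in a tissue (28885 probes). No tool versions are given in the sources used here. The members and lists were chosen with earlier results of these data known.

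Intensities under 1 would have been set to 1 (0 values were), and repeated lines of a probe were averaged. Log2 intensities of 35 arrays were quantile-normalised. Muscle XpO pool 3 was left out, and on the other arrays the rank correlation with the authors' values was at least 0.999943. Probes with 1 gene symbol (21014) were named by the platform annotation and RefSeq symbols of GRCm38.p6, 6 with several symbols and 7865 with none stayed unnamed. The study's methods give 7 XX mice, whereas its pool sizes sum to 8.

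Two-sided tests used limma 3.58.1 (lmFit, eBayes) in R 4.3.3 with genotype as the only term, fitted per tissue over all detected probes with Benjamini-Hochberg adjustment at 0.05. The brain-muscle difference was fitted over all tissues. XmO-XpO in liver and kidney chose the genes, so neither it nor XX against the midpoint carries a p for them there. Named genes were all probes of the members, the 3 genes most correlated with each member's brightest probe, the largest or called of 10 neighbours on each side, called list genes and those of smallest p. Python 3.11.15, numpy 2.4.6, pandas 2.3.3, scipy 1.17.1 and matplotlib 3.10.9 served for summaries. On simulated data the muscle step (21810 probes) recovered 98% of changes of 1 log2 unit and 55% of changes of 0.5, and the brain step (24863 probes) 85% and 37%. Alternatives were median scaling, quantiles within each tissue, the authors' own log2 values, testing all probes or only those above the median signal, normexp (offset 50), a replicate block and leaving out each pool. The number of arrays limits the precision.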

Additional observations from a re-analysis of the deposited data

How the results depend on the processing

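Over all alternatives, 963 of the fits of single probes of these genes kept their direction and side of the threshold, 30 lost and 6 gained a call, and 0 turned. These counts include XX minus the midpoint in liver and kidney, from whose calls nothing is read. They also include results not called in the main fit, which kept their side by staying uncalled, so 963 is no measure of how stable the calls were. Ndufb10 kept every call. XX was nearer to XpO than to XmO in 22 to 23 pairs, both with 1 pool left out and under the other alternatives run for this count, which leave out the restriction to brighter probes.

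XmO minus XpO in liver called 10 probes, and 5 with the authors' values, 365 with median scaling (which shifted the median of all probes by -0.09), 16 with normexp, 19 without a filter on dim probes and 4 among probes above the median signal (3 to 15 with 1 pool left out). In kidney 21 became 12 with median scaling, 35 without a filter and 13 among probes above the median signal (6 to 39). In muscle 3 became 6 with quantiles within tissue, 6 with median scaling, 9 without a filter and 6 among probes above the median signal (2 to 6), and in brain 4 became 2 with median scaling and 1 among probes above the median signal (1 to 5). XX minus the midpoint called 1465 in liver (726 higher, 739 lower), against 2452 with median scaling (384 higher, 2068 lower; 36 to 969 with 1 pool left out), and 15 in kidney, against 28 without a filter (7 to 384). In muscle XX minus XpO called 3, against 1 with the authors' values, 42 with median scaling and 1 among probes above the median signal (1 to 34), and XX minus XmO 35 (25 higher, 10 lower), against 493 with median scaling (35 higher, 458 lower; 7 to 66). In brain XX minus XpO called 2 (1 to 2), and XX minus XmO 7, against 4 with median scaling (5 to 9). The difference between brain and muscle called 98 probes, 1 with the authors' values, 409 with median scaling and 47 without a filter (8 to 804). The extremes came without XX pool 3 (36) in liver and XX pool 1 (384) in kidney for the midpoint, without XX pool 3 (34 and 66) in muscle for XX, and without muscle XpO pool 1 (8) or brain XmO pool 3 (804) for the last. The causes of these changes were not tested.

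Same-numbered pools shared only a number, with correlations of their deviations from -0.58 to 0.37. With the number as a block, 801 probes were called for XX minus the midpoint in liver, 12 for XmO minus XpO, and 82 for XX minus XmO in muscle, and 1, 1 and 3 for XmO minus XpO, XX minus XpO and XX minus XmO in brain. Under the block limma lost H4c6 in muscle (adjusted p = 0.0529) and the Kptn probe ILMN_1216235 in brain (0.188, and 0.0977 against XX).

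Calls that limma gained (adjusted p) outside the midpoint contrast were ILMN_1216235 for XX minus XmO in muscle with median scaling (0.0411), and for brain against muscle ILMN_1216235 with median scaling (0.0107) or without brain XmO pool 3 (0.022) and H4c6 without that pool (0.0391). Signals near background, as for Tedc2 in XmO and ILMN_1216235 in XX and XpO, limit what a fold can show.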
